A study of Mus musculus with 6 samples.

Results

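The 45 genes described here make, sulfate, remodel and break down the glycosaminoglycans of cartilage. They were taken by name from a deposited table of 26969 mouse genes, and all 45 were found in it. The names fall into 8 roles: linkage to the core protein (6 genes), chondroitin polymerisation (6), chondroitin and dermatan modification (9), heparan polymerisation (4), heparan modification (8), supply and transport of donors (6), hyaluronan synthases (3) and hyaluronan breakdown (3). The RNA came from wild-type mouse chondrocytes in 6 poly(A)-selected, paired-end libraries, in a series whose title speaks of mitochondria from osteocytes and their effect on chondrocytes. The 3 libraries described as mAC_Mito are titled and annotated as vehicle, while the 3 described as mAC are titled and annotated as having received mitochondria. Because these labels contradict each other, groups carry the name in the description. Differences are given as mAC_Mito less mAC, and none of them can be read as an effect of the mitochondria. The extraction protocol also speaks of adipose RNA. The sources used here do not give the age or sex of the animals, the passage of the cells or how mitochondria were delivered. Whether replicates were separate cultures or animals is not said, and p-values then measure only the spread of these libraries, which may be technical.

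Glycosaminoglycans are long sugar chains. Chondroitin, dermatan and heparan sulfate are built in the Golgi on a short linkage sugar that is attached to a serine of a core protein, and are then sulfated with the activated sulfate PAPS. Chondroitin sulfate on aggrecan draws water into cartilage and lets it bear load, whereas heparan sulfate on syndecans, glypicans and perlecan binds growth factors. Hyaluronan is different: it is unsulfated, is spun out at the cell surface by synthases without any core protein, and holds aggrecan in large aggregates.

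Total counts per library ran from 59116068 to 68378213. Chondrocyte markers were high, with a summed level of 2020 to 2420 FPKM in mAC and 1890 to 2950 FPKM in mAC_Mito over 12 genes (FPKM, fragments per kilobase of gene model scaled to library size, is the deposited measure of level). Of 8 endothelial markers Tek and Tie1 were at 0 in at least 1 library and the list summed to at most 1.62 FPKM. The osteocyte markers Dmp1 and Sost were likewise at 0 in at least 1 library, while the 9 measured osteoblast and osteocyte markers summed to 56.2 to 78.5 FPKM. Of that sum Pdpn alone gave 34.7 to 60.1 FPKM per library. Mean levels were 8.06 FPKM for Ibsp, 6.20 for Alpl, 3.63 for Sp7 and 2.37 for Bglap2, and at most 0.378 for the rest. Markers of macrophages and leukocytes (12 genes) summed to 69.2 to 86.0 FPKM in mAC and 76.0 to 122 FPKM in mAC_Mito, skeletal muscle markers (9 of 10 in the table) to 39.8 to 73.7 and 61.5 to 69.6, and adipocyte markers (8) to 69.8 to 113 and 96.5 to 117. These sums were also carried by few genes. In the leukocyte list Lyz2 had a mean of 66.95 FPKM and Cd68 of 7.828, and the rest at most 3.551 (Ptprc 0.0568). In the adipocyte list the means were 45.1 FPKM for Fabp4, 18.03 for Adipoq, 12.63 for Lpl and at most 9.406 for the rest. Among the muscle markers Mylpf was highest, with a mean of 22.02 FPKM. The part of other cell types in the levels below was not tested. Fewer cells of a type cannot be told apart from less RNA per cell. Between the groups 2 of 17645 genes passed an adjusted p of 0.05.

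Promoters are shown for a pair of enzyme families whose members differ in level, and for 2 of the genes with the smallest p. The RefSeq promoter table used here (GRCm38.p6) was matched for 35 of the 45 genes. Each line gives bases upstream of the start site, 5′ to 3′ on the strand of the gene, and capitals mark a motif found on either strand. The GC box was searched as GGGCGG, with CCGCCC for the other strand. The CCAAT box has ATTGG as its other strand. The TATA box was searched as TATAAA, on the other strand as TTTATA. Matches can share bases at their ends, and each was counted. The chondroitin 4-O-sulfotransferases are Chst11 at chr10:82985247-82985496 (plus strand), Chst12 at chr5:140505359-140505549 (plus strand) and Chst13 at chr6:90325186-90325435 (minus strand). For Chst12 the 59 bases that lie inside the gene model of the table are left out. The PAPS synthases are Papss1 at chr3:131564518-131564767 (plus strand) and Papss2 at chr19:32595465-32595714 (plus strand). The heparan 6-O-endosulfatase Sulf2 is shown at chr2:166155684-166155933 (minus strand) and the hyaluronan-degrading Cemip at chr7:84086506-84086755 (minus strand).
Chst11: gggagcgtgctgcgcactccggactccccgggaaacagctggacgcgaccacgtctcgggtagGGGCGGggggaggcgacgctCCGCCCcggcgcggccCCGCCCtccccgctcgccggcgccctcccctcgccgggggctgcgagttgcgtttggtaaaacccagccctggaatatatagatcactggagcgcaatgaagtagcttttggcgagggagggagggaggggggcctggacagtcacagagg
Chst12: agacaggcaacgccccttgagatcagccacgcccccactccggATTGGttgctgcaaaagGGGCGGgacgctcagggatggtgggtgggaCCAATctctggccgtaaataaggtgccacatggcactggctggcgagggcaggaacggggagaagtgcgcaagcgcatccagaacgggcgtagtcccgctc
Chst13: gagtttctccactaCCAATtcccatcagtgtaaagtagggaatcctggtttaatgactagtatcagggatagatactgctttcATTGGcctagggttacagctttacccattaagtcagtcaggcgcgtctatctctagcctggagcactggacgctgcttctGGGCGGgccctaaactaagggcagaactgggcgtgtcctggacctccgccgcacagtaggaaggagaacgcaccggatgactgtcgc
Papss1: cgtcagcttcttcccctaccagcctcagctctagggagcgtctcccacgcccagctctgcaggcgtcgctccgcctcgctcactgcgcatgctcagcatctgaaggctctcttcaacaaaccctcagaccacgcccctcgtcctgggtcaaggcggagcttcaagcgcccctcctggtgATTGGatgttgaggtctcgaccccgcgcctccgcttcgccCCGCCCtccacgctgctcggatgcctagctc
Papss2: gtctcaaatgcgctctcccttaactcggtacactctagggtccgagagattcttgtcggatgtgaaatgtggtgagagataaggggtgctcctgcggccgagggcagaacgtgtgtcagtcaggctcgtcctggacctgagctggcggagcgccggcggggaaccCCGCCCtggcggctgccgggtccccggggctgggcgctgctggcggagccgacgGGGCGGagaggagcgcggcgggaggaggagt
Sulf2: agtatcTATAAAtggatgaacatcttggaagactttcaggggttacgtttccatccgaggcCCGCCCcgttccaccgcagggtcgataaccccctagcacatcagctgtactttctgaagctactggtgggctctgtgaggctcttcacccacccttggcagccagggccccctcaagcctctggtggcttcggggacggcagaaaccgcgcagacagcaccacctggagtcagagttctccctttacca
Cemip: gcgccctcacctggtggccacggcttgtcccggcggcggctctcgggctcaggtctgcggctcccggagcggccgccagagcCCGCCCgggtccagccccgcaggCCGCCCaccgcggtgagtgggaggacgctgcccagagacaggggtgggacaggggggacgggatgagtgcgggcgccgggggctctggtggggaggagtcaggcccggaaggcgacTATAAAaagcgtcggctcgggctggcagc

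In a window of 250 bases before the start site, 28 of the 35 genes (80.0%) held a GC box, against 32.7% of 32851 promoters of all kinds of gene in the RefSeq table. A CCAAT box was in 14 of 35 (40%, against 33.8%), and a TATA box in 3 (8.57%, against 12.4%). The windows of the 35 were also richer in G and C, with a median of 65.2% against 52.4%. Their median number of CpG dinucleotides was 18, against 6. The part of this base content in the GC box matches was not tested. The windows of Dse, Hyal2 and Hs6st2 lay wholly inside the gene models of the deposited genes, and some others in part. Among the sequences shown, Chst11 and Chst12, which were well expressed, held 26 and 20 CpG dinucleotides in that window. Chst13, which was close to 0, held 10, above the median of 6 over all promoters. Papss1 held 20 and Papss2 held 24. Other members went both ways. Has1 and Chst3, each with a mean below 1 FPKM, held 4 and 18, and Sulf2, with a mean above 20 FPKM, held 10. A link between CpG number and level was not tested. The TATA box matches belong to Hs6st2, Sulf2 and Cemip. In Sulf2 the match lies at the far end of the window from the start site, and in Cemip close to the start site. The start site used for Hs6st2 lies 254 bases inside the gene model, so its match is inside the model too. These matches describe letters and not binding.

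The 45 genes ranged from trace to abundant, and most varied little between the 6 libraries. The mean over 6 libraries was at least 20 FPKM for 10 genes, 5 to 20 FPKM for 23, 1 to 5 FPKM for 7 and below 1 FPKM for 5. For 37 of 44 genes the highest library was less than 1.5 times the lowest. The genes that supply donors made up 34.9% to 37.6% of the summed FPKM of all 45 in each library, and the hyaluronan synthases 1.33% to 1.85%.

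**Figure D1:**
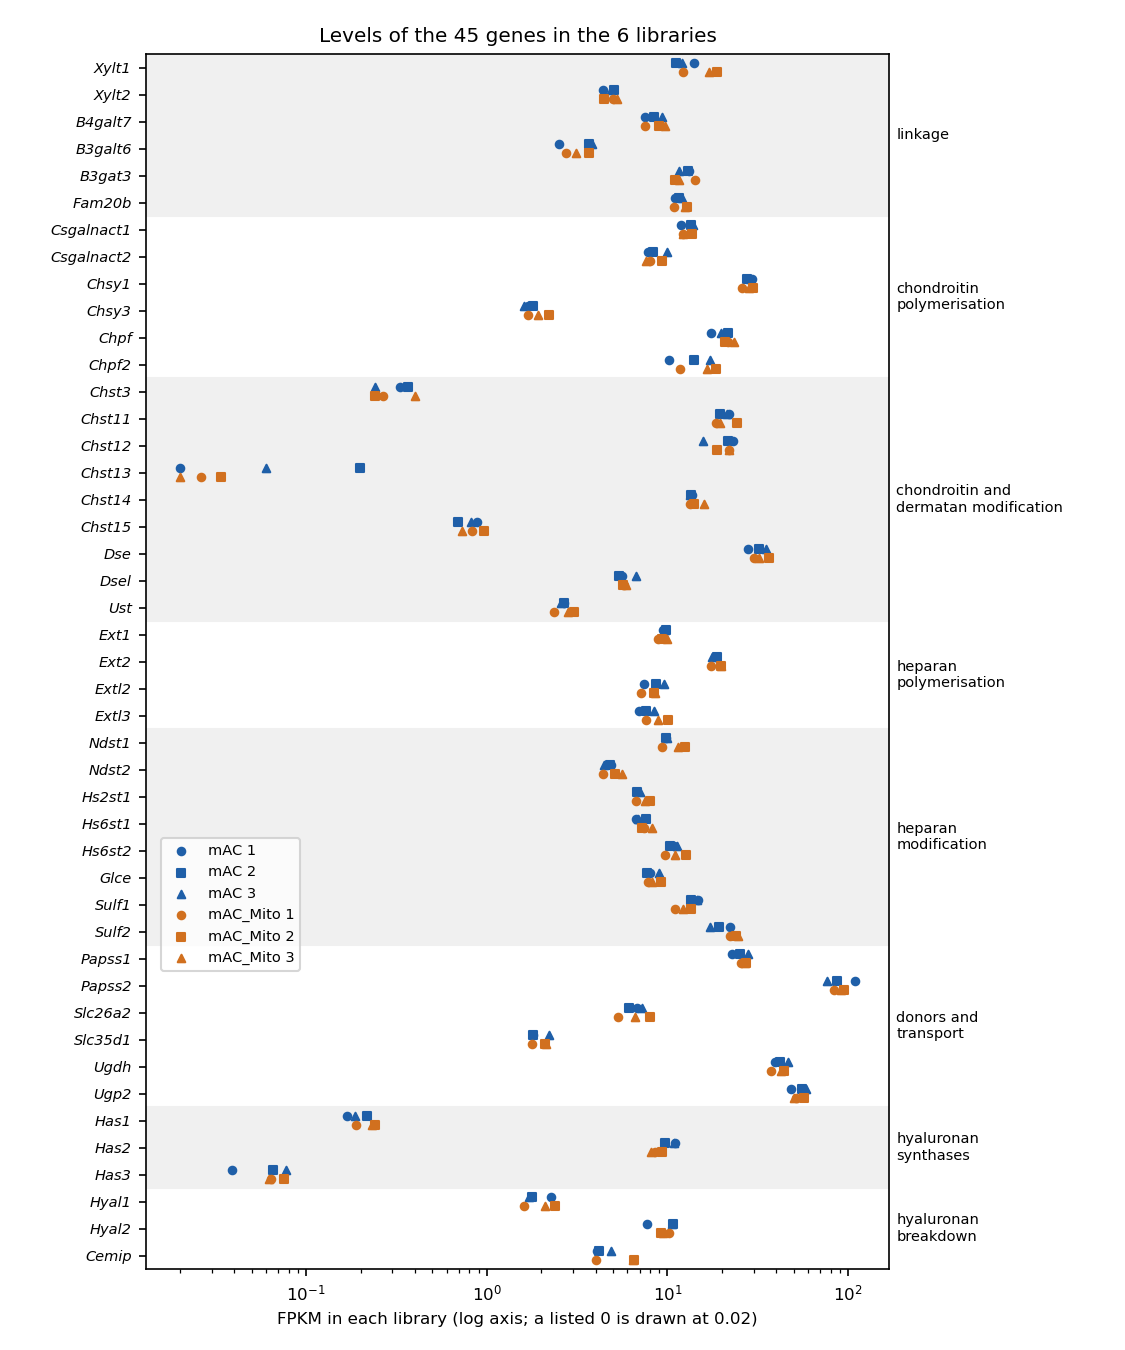
FPKM of each of the 45 genes (rows, ordered by role) in the 6 libraries on a log axis, with mAC in blue and mAC_Mito in orange and 1 symbol per replicate number. The points of a gene lie close together, while genes differ from below 0.1 FPKM (Chst13, Has3) to 90.5 FPKM on average (Papss2).

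None of the 44 genes that passed the filter on low counts passed the test of a difference between the groups. With edgeR's quasi-likelihood test and Benjamini-Hochberg adjustment over 17645 genes, 0 of 44 passed an adjusted p of 0.05 in either direction, where 0.0113% of all genes did (0.00567% higher and 0.00567% lower), and every adjusted p was 0.99992. DESeq2 and limma on log2(FPKM + 1) also called 0. At an unadjusted p under 0.05, 1 gene was higher in mAC_Mito (Cemip; 2.1% of all genes) and 2 were lower (Has2 and Sulf1; 1.09% of all genes). DESeq2 put 4 members under that limit and limma 2. The median log2 fold change of the 44 was 0.02, against 0.0016 over all genes tested, with 27 above and 17 below 0. Chst13 did not pass the filter.

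Taken 1 gene at a time, the intervals show which differences these libraries leave possible. For 39 of 44 genes (88.6%, against 57.4% of all genes tested) the 95% interval of the fold change lay within 1.5-fold in either direction. The 5 whose interval reached beyond were Xylt1, Chst3, Has1, Has3 and Cemip. The median distance from the estimate to the end of the interval was 0.25 on the log2 scale, and the widest, for Has3, was 1.0.

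**Figure D2:**
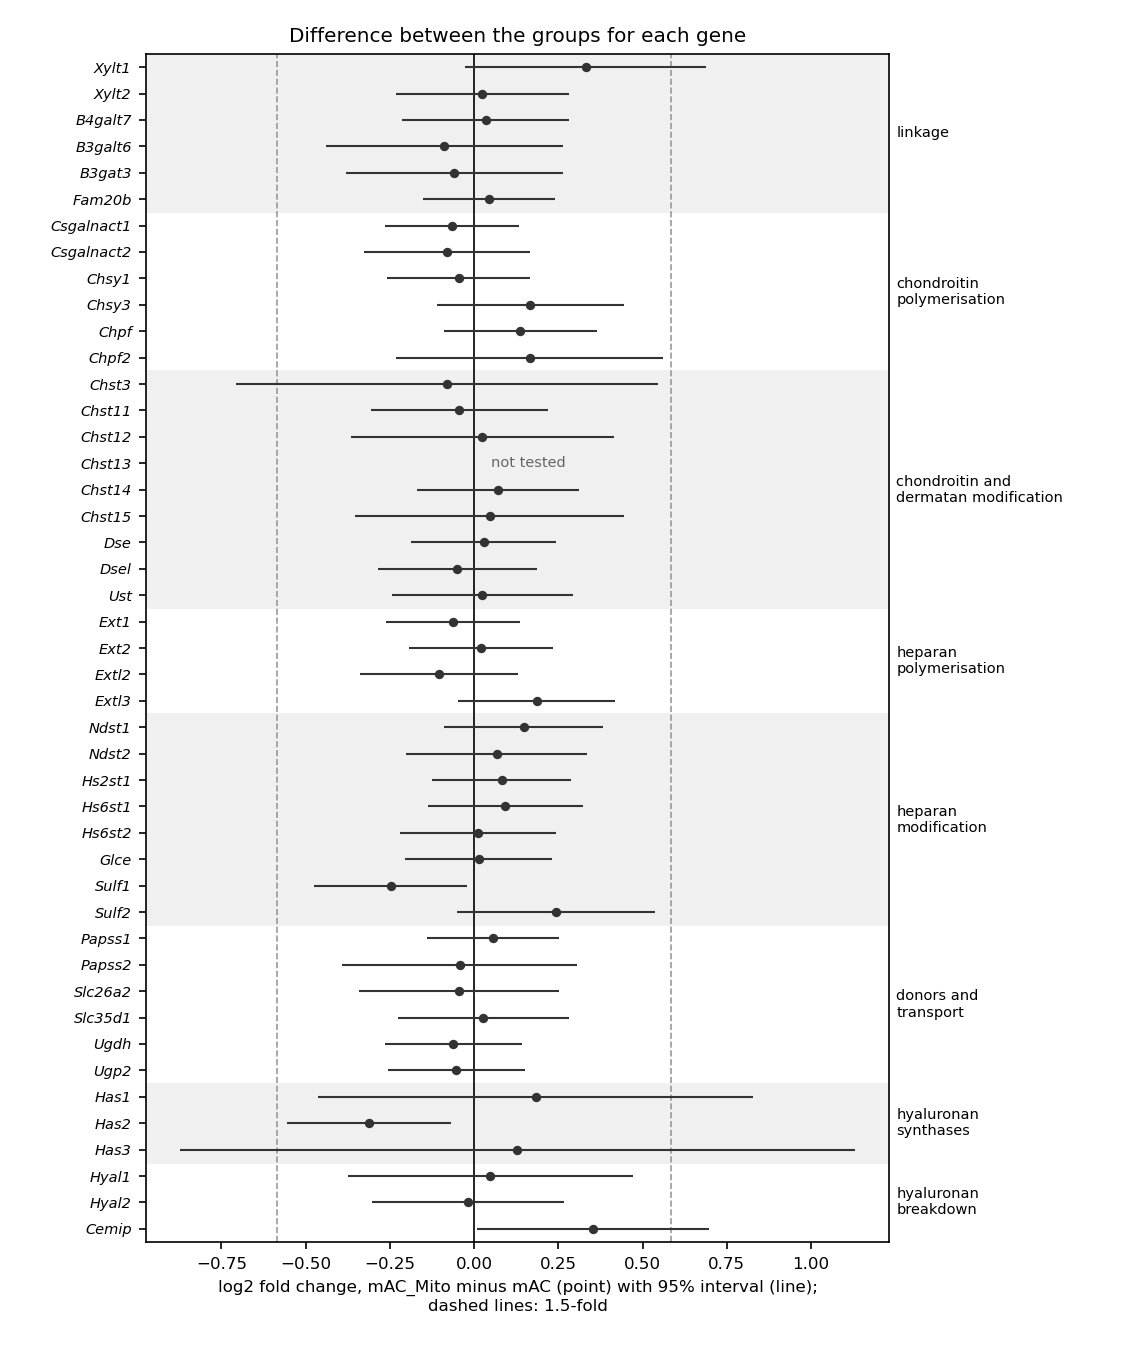
Log2 fold change (mAC_Mito minus mAC, edgeR) of each gene with its 95% interval, ordered by role, with dashed lines at 1.5-fold. Has2 and Sulf1 lie furthest to the left (-0.31 and -0.25) and Cemip and Xylt1 furthest to the right (0.35 and 0.33), and no gene passed the adjusted threshold.

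Nearly all hyaluronan synthase transcript, measured as FPKM, came from 1 of the 3 genes. Has2, which makes high-molecular-weight hyaluronan and lies on chromosome 15 at 56665627 to 56694539 (GRCm38, as for all genes here), was at 11, 9.75 and 10.9 FPKM in mAC 1, 2 and 3 and at 8.49, 9.29 and 8.08 FPKM in mAC_Mito 1, 2 and 3. The groups did not overlap: the highest mAC_Mito library was below the lowest mAC library. Means were 10.5 ± 0.686 and 8.62 ± 0.617 FPKM (SD, n = 3), and the edgeR log2 fold change was -0.31 (SE, its standard error, 0.11), with a 95% interval of -0.56 to -0.07 (unadjusted p = 0.0170, adjusted p = 0.99992). It was the 1 member, of 44, whose FPKM was lower in every mAC_Mito library, where 3.54% of all genes tested had that pattern. Has2os, a non-coding RNA on the opposite strand that covers 15.9% of the span of Has2, had 60 to 137 counts per library against 2377 to 3288 for Has2.

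The other synthases were at trace level. From here on, a pair of means ± SD (n = 3) gives mAC first and mAC_Mito second. Has1 was at 0.191 ± 0.0248 and 0.220 ± 0.0274 FPKM, from 54 to 78 counts per library, and Has3 at 0.0606 ± 0.0199 and 0.0669 ± 0.00717 FPKM, from 18 to 36 counts. Has2 therefore held 96.5% to 98.2% of the FPKM of the 3 synthases in each library.

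The 3 genes of hyaluronan breakdown had unlike values. Cemip, a protein needed for depolymerising hyaluronan at the cell surface (chromosome 7, 83932857 to 84086502), was at 4.07, 4.17 and 4.85 FPKM in mAC 1, 2 and 3 and at 4.04, 6.53 and 6.47 FPKM in mAC_Mito 1, 2 and 3. Libraries 2 and 3 of mAC_Mito were above all others, and mAC_Mito 1 was the lowest of the 6, so the groups overlapped. Its log2 fold change was 0.35 (SE 0.15, edgeR, unadjusted p = 0.0455, adjusted p = 0.99992). Without mAC_Mito 1 it was 0.52 (edgeR adjusted p = 0.36154).

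Hyal2, a hyaluronidase anchored in the cell membrane, was the most abundant gene of this role (chromosome 9, 107567945 to 107572779). It was at 7.66, 10.7 and 10.6 FPKM in mAC 1, 2 and 3 and at 10.2, 9.15 and 9.44 FPKM in mAC_Mito 1, 2 and 3. Library mAC 1 was the lowest and the groups overlapped (log2 fold change -0.02, SE 0.13). Hyal1, the lysosomal hyaluronidase, was at 1.92 ± 0.309 and 2.03 ± 0.394 FPKM. Naa80 overlaps 59.0% of its span on the same strand and had 696 to 1194 counts, against 461 to 614 for Hyal1, so the level of Hyal1 depends on how shared reads were assigned.

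The extracellular sulfatases Sulf1 and Sulf2 cut 6-O-sulfates from finished heparan sulfate chains and thereby tune growth factor binding. Sulf1 (chromosome 1, 12692277 to 12861192) was at 14.7, 13.4 and 14.6 FPKM in mAC 1, 2 and 3 and at 11, 13.5 and 12.2 FPKM in mAC_Mito 1, 2 and 3. Library mAC_Mito 2 was level with mAC 2, and the other mAC_Mito libraries were below every mAC library. Its log2 fold change was -0.25 (SE 0.10), with a 95% interval of -0.47 to -0.02 (edgeR, unadjusted p = 0.0356, adjusted p = 0.99992).

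Sulf2 (chromosome 2, 166073089 to 166155663), whose promoter is printed above, was at 22.2, 19.3 and 17.1 FPKM in mAC 1, 2 and 3 and at 22.2, 23.9 and 24.6 FPKM in mAC_Mito 1, 2 and 3. Its groups touched but did not overlap in FPKM, as did those of 3.76% of all genes tested in that direction, and no other member showed it. In TMM-scaled CPM, a measure added after seeing the data, Sulf2 overlapped and Sulf1 did not, so that 0 members were higher and 2 lower (Has2 and Sulf1) without overlap, where 3.93% and 4.39% of all genes tested were. For Sulf2 the log2 fold change was 0.24 (SE 0.13, edgeR, unadjusted p = 0.0934, adjusted p = 0.99992). It was 0.40 without mAC 1 and 0.13 without mAC 3.

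Set beside each other in the same library, Sulf1 took 39.9%, 41.1% and 46.0% of the FPKM of the pair in mAC 1, 2 and 3. In mAC_Mito 1, 2 and 3 it took 33.0%, 36.0% and 33.1%. Every mAC_Mito library was below every mAC library, with means of 42.3% ± 3.27 and 34.1% ± 1.70 (SD, n = 3). The difference of -8.25 percentage points lay between -9.47 and -6.39 with any 1 library left out. Of 10 families compared in this way, the groups did not overlap for the shares of the Sulf pair and of Has2 (-0.875 points) and Has3. The share of Has1 overlapped narrowly in FPKM, at 2.168% in mAC 2 and 2.158% in mAC_Mito 1. In TMM-scaled CPM these were 2.318% and 2.321%, so that every mAC_Mito library was above every mAC library. How often the shares of other genes separate like this was not counted. The Sulf1 share was singled out after its values were seen. It was not tested, since 3 against 3 libraries cannot give an exact permutation p below 0.1, even without overlap.

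**Figure D3:**
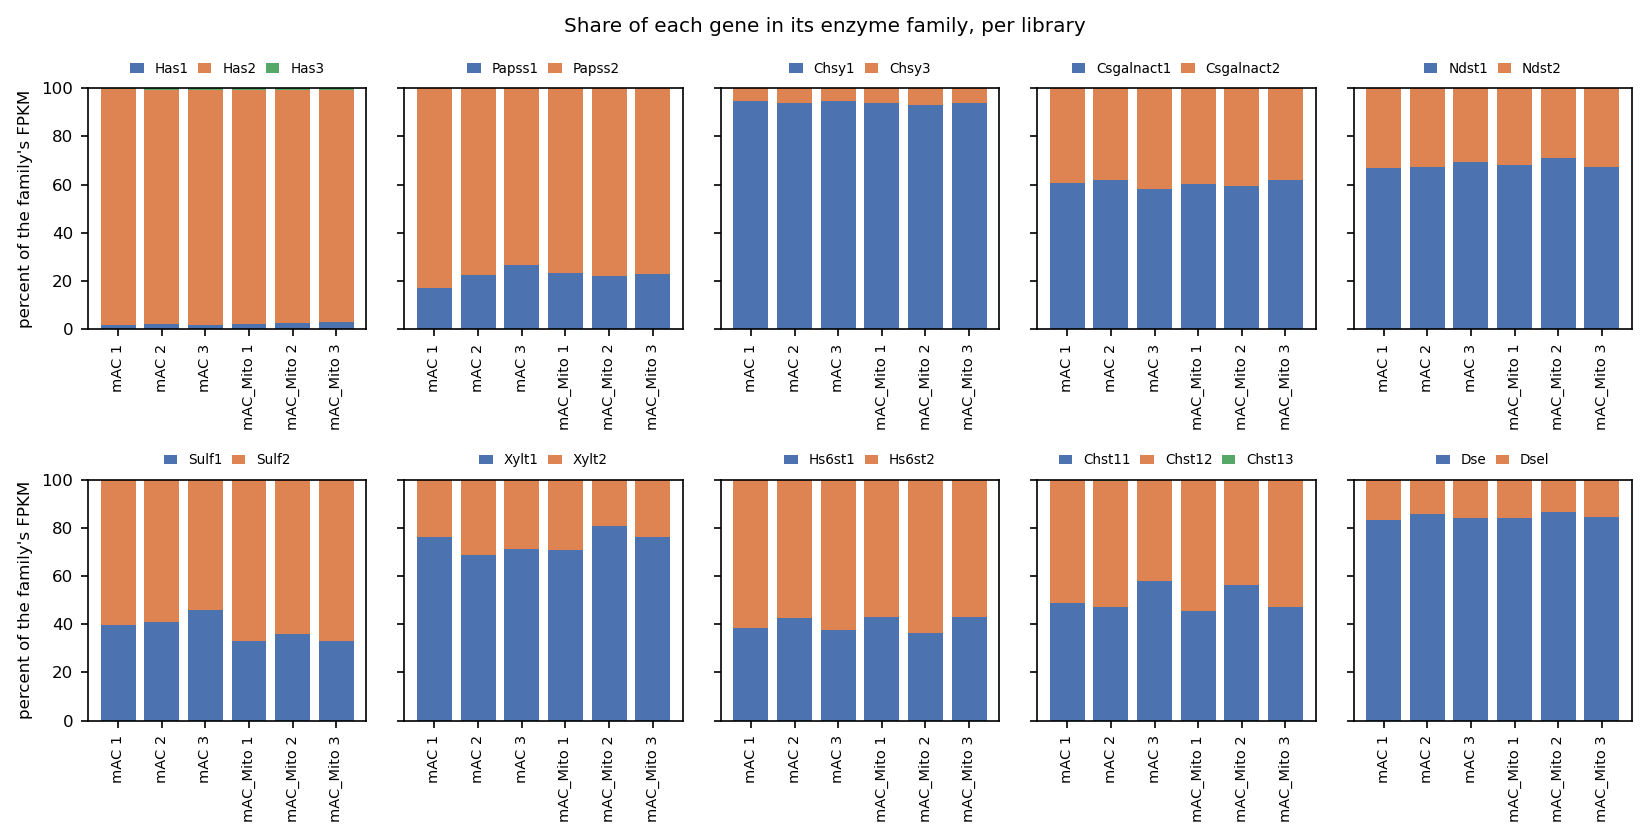
Percent of a family's summed FPKM taken by each of its genes (stacked bars, 1 bar per library) for 10 enzyme families. Has2, Papss2, Chsy1 and Dse dominate their families in each library, and Sulf1 takes 39.9% or more in mAC and 36.0% or less in mAC_Mito.

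The enzymes that sulfate heparan inside the Golgi were at similar levels in both groups. Ndst1, which removes acetyl groups from the chain and adds N-sulfate, was at 9.82 ± 0.0999 and 11.1 ± 1.61 FPKM, and its relative Ndst2 at 4.70 ± 0.237 and 5.02 ± 0.597 FPKM. The highly expressed ribosomal protein gene Rps14 overlaps 2.42% of the span of Ndst1 on the opposite strand. Hs2st1, the 2-O-sulfotransferase, was at 6.86 ± 0.133 and 7.38 ± 0.677 FPKM. Of the 6-O-sulfotransferases, Hs6st1 was at 7.05 ± 0.470 and 7.62 ± 0.532 FPKM. Hs6st2 was at 10.8 ± 0.526 and 11.1 ± 1.46 FPKM and held 56.8% to 63.6% of the pair. Glce, the epimerase that turns glucuronic into iduronic acid, was at 8.22 ± 0.711 and 8.42 ± 0.741 FPKM. Of the 8 genes of this role, 7 had a fold change above 0 and Sulf1 one below 0, with a median log2 fold change of 0.07.

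Heparan chain building showed little spread. Ext1 and Ext2 form the heparan polymerase. Ext2 (chromosome 2, 93661028 to 93822568) was at 18.7, 18.7 and 17.7 FPKM in mAC 1, 2 and 3 and at 17.4, 19.8 and 19.7 FPKM in mAC_Mito 1, 2 and 3, with log2 fold change 0.02 (SE 0.10). Ext1 was at 9.65 ± 0.242 and 9.38 ± 0.516 FPKM. In every library Ext2 stood above Ext1, and neither separated the groups.

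Extl3, which starts the heparan chain on the linkage sugar, was at 7.65 ± 0.749 and 8.83 ± 1.24 FPKM (log2 fold change 0.19, SE 0.10). Extl2, which can add a hexosamine to that same sugar (chromosome 3, 116007462 to 116029017), was at 7.37, 8.65 and 9.57 FPKM in mAC 1, 2 and 3 and at 7.17, 8.44 and 8.50 FPKM in mAC_Mito 1, 2 and 3. The libraries numbered 1 were lowest in both groups, and the groups overlapped (log2 fold change -0.10, SE 0.10, edgeR unadjusted p = 0.345).

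Linkage begins with the xylosyltransferases. Xylt1, the main one of cartilage (chromosome 7, 117380979 to 117673580), was at 14.1, 11.1 and 12.0 FPKM in mAC 1, 2 and 3 and at 12.1, 18.8 and 17 FPKM in mAC_Mito 1, 2 and 3. As for Cemip, mAC_Mito 2 and 3 were above the other libraries. For Xylt1, mAC_Mito 1 lay within the range of mAC. Its log2 fold change was 0.33 (SE 0.16), with a 95% interval of -0.03 to 0.69 (edgeR, unadjusted p = 0.0667, adjusted p = 0.99992). Without mAC_Mito 1 it was 0.46. Xylt2 was at 4.77 ± 0.324 and 4.91 ± 0.418 FPKM, so Xylt1 held 68.7% to 80.9% of the pair.

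The groups overlapped for each enzyme that finishes the linkage sugar. Of the galactosyltransferases, B4galt7 was at 8.42 ± 0.887 and 8.74 ± 1.12 FPKM and B3galt6 at 3.35 ± 0.720 and 3.18 ± 0.486 FPKM. B3gat3, which adds the glucuronic acid, was at 12.6 ± 0.811 and 12.2 ± 1.68 FPKM. Fam20b, the kinase that phosphorylates the xylose, was at 11.5 ± 0.529 and 12.0 ± 1.06 FPKM. B3galt6 was thus the least abundant of the 6 linkage genes in mean level. It was lowest in mAC 1 and mAC_Mito 1 (2.52 and 2.73 FPKM) and between 3.12 and 3.82 FPKM elsewhere.

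Xylt1 and Cemip were highest in mAC_Mito 2 and 3, the libraries in which the summed fibroblast and chondrocyte markers were also highest. The 8 fibroblast markers summed to 1586, 1230 and 1504 FPKM in mAC 1, 2 and 3 and to 1259, 2374 and 2237 FPKM in mAC_Mito 1, 2 and 3. That sum was carried by fibronectin (Fn1) and the collagens Col1a1, Col1a2, Col3a1 and Col5a1. Other fibroblast markers did not share the pattern: in mAC_Mito 1, 2 and 3 Postn was at 103.5, 89.0 and 87.0 FPKM and Thy1 at 38.4, 27.7 and 29.7 FPKM, and Dpt was highest in mAC 3. The 12 chondrocyte markers summed to 1889, 2950 and 2696 FPKM in mAC_Mito 1, 2 and 3, of which the cartilage collagen Col2a1 alone gave 950.6, 1662 and 1559 FPKM. The cartilage matrix genes Hapln1 (46.4, 42.7 and 41.9 FPKM) and Snorc (54.5, 39.4 and 41.7 FPKM) were lower in mAC_Mito 2 and 3 than in mAC_Mito 1. The 10 mitosis markers, in turn, summed to 220 to 235 FPKM in mAC and 185 to 213 FPKM in mAC_Mito, without overlap. Taken singly, 5 of the 10 were lower without overlap, as were Has2 and 3.54% of all genes tested. The rest overlapped, among them Mki67, at 18.3, 13.5 and 12.8 FPKM in mAC 1, 2 and 3. In mAC_Mito 1, 2 and 3 Mki67 was at 13.4, 15.5 and 14.4 FPKM. All 10 mitosis markers had a log2 fold change below 0, with a median of -0.22. These ran from -0.355 (Bub1) to -0.0754 (Mki67). At an unadjusted p under 0.05 (edgeR) 4 of the 10 were lower, where 1.09% of all genes tested were, and 0 passed the adjusted threshold. The part of these lists in the levels of Xylt1, Cemip and Has2 was not tested.

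**Figure D4:**
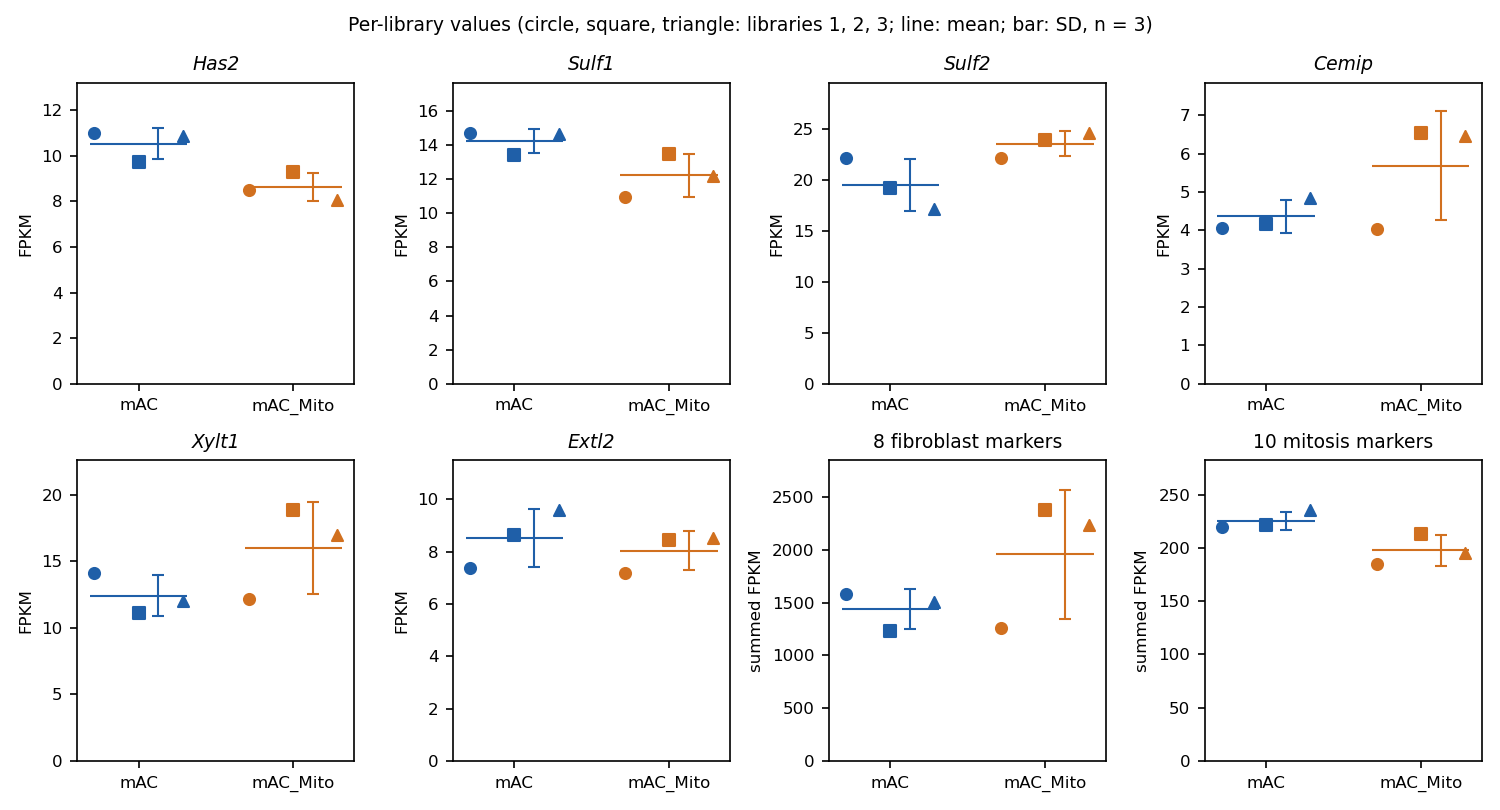
FPKM per library of the 3 genes with the smallest unadjusted p in each direction, and summed FPKM of the 8 fibroblast and the 10 mitosis markers (points; horizontal line, mean; vertical bar, SD, n = 3). Has2 is lower in all mAC_Mito libraries (8.08 to 9.29 against 9.75 to 11 FPKM), whereas Cemip and Xylt1 are high in mAC_Mito 2 and 3 and not in mAC_Mito 1.

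Chondroitin chains are started by Csgalnact1 and Csgalnact2 and extended by complexes of a synthase with a polymerising factor. Chsy1, the synthase with the highest level (chromosome 7, 66109515 to 66173798), was at 29.3, 27.4 and 28.5 FPKM in mAC 1, 2 and 3 and at 26.0, 29.8 and 28.1 FPKM in mAC_Mito 1, 2 and 3. The groups overlapped, at log2 fold change -0.05 (SE 0.10), with a 95% interval of -0.26 to 0.17. Chsy3 was at 1.69 ± 0.0978 and 1.93 ± 0.257 FPKM, so Chsy1 held 93.1% to 94.7% of the pair. The polymerising factor Chpf was at 19.7 ± 2.13 and 21.9 ± 1.31 FPKM.

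Chpf2, a second such factor, had a ratio of highest to lowest library of 1.83, second among the 44 genes to that of Has3 (2.0). It was at 10.2, 13.9 and 17.3 FPKM in mAC 1, 2 and 3 and at 11.7, 18.6 and 16.6 FPKM in mAC_Mito 1, 2 and 3, lowest in library 1 of each group. Those libraries also had the largest shares of mitochondrial mRNA among all counts, 7.31% in mAC 1 and 5.6% in mAC_Mito 1 against 2.91% to 4.71% in the others, and the part of that in the level of Chpf2 was not tested. Smarcd3 overlaps 47.8% of the span of Chpf2 on the opposite strand, with 1053 to 1674 counts against 4002 to 7037 for Chpf2. Csgalnact1, whose loss shortens chondroitin chains in cartilage, was at 13.1 ± 1.02 and 12.7 ± 0.841 FPKM, and Csgalnact2 at 8.71 ± 1.12 and 8.33 ± 0.943 FPKM.

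Sulfation of chondroitin at the 4-O position was represented by a balanced pair and a nearly silent relative. Chst11, the main 4-O-sulfotransferase of growing cartilage, was at 22.0, 19.5 and 21.5 FPKM in mAC 1, 2 and 3 and at 18.5, 24.3 and 19.4 FPKM in mAC_Mito 1, 2 and 3. Chst12 was at 23.1, 21.7 and 15.6 FPKM in mAC and at 22.0, 18.7 and 21.9 FPKM in mAC_Mito. Where Chst11 was high relative to Chst12, in mAC 3 and mAC_Mito 2, it held 57.8% and 56.5% of the family, and 45.6% to 48.8% in the other 4 libraries, so that shift ran across the groups. Chst13 was counted 0, 26 and 8 times in mAC 1, 2 and 3, and 4, 4 and 0 times in the mAC_Mito libraries. No library but mAC 2 exceeded 8.

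The 6-O and disulfating enzymes were low. Chst3, the chondroitin 6-O-sulfotransferase, was at 0.313 ± 0.0649 and 0.303 ± 0.0849 FPKM, from 107 to 189 counts. Its relative Chst7, not among the 45, was at 1.95 ± 0.459 and 2.39 ± 0.506 FPKM. Chst15, which adds a 6-O-sulfate to a 4-O-sulfated unit, was at 0.796 ± 0.0979 and 0.837 ± 0.118 FPKM, and its whole span lies within the model of Fgfr2 on the same strand (12577 to 17890 counts), so reads could be divided between them. Ust, the uronyl 2-O-sulfotransferase, was at 2.64 ± 0.0691 and 2.73 ± 0.334 FPKM.

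The enzymes that turn chondroitin into dermatan sulfate were abundant. Dse, the main epimerase (chromosome 10, 34151393 to 34207715), was at 27.9, 32.2 and 35.2 FPKM in mAC 1, 2 and 3 and at 30.1, 36.3 and 32.1 FPKM in mAC_Mito 1, 2 and 3. The groups overlapped, at log2 fold change 0.03 (SE 0.10). Dsel was at 5.92 ± 0.712 and 5.78 ± 0.12 FPKM, leaving 83.3% to 86.5% of the pair to Dse. Chst14, which sulfates dermatan at the 4-O position and works with Dse, was at 13.5 ± 0.242 and 14.4 ± 1.31 FPKM. None of the 8 tested genes for chondroitin and dermatan modification had an unadjusted p under 0.05, and their log2 fold changes ran from -0.08 to 0.07.

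Donor supply held the most abundant transcripts. Papss2, the PAPS synthase that cartilage depends on (chromosome 19, 32595790 to 32667185), ranked 472 of 17645 genes by mean FPKM. It was at 109, 87.2 and 75.9 FPKM in mAC 1, 2 and 3 and at 83.9, 95.2 and 91.4 FPKM in mAC_Mito 1, 2 and 3. Both extremes were mAC libraries, between which the mAC_Mito libraries lay (log2 fold change -0.04, SE 0.16). Papss1 was at 25.2 ± 2.5 and 26.6 ± 0.930 FPKM and was lowest in mAC 1 (22.8) and highest in mAC 3 (27.8), the reverse of Papss2. Papss2 thus took 82.8% of the pair in mAC 1 and 73.2% in mAC 3, against 76.7% to 77.8% in the 3 mAC_Mito libraries.

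Ugp2, which makes UDP-glucose, and Ugdh, which oxidises it to UDP-glucuronic acid, followed in level. Ugp2 was at 54.2 ± 5.29 and 52.9 ± 3.44 FPKM and Ugdh at 42.6 ± 3.65 and 41.4 ± 3.69 FPKM. The transporters were lower. Slc26a2, the sulfate transporter whose loss causes chondrodysplasia, was at 6.73 ± 0.549 and 6.65 ± 1.36 FPKM, and Slc35d1, which brings nucleotide sugars into the endoplasmic reticulum, at 1.94 ± 0.227 and 2.0 ± 0.195 FPKM. The log2 fold changes of the 6 donor genes ran from -0.06 to 0.06.

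Among 65 further names of the same pathway, listed beside the 45, 61 were in the table, 56 passed the filter, and 0 passed the adjusted threshold in either direction with edgeR (DESeq2 and limma also 0). At an unadjusted p under 0.05, 2 of the 56 were higher in mAC_Mito and 1 was lower, where 2.1% and 1.09% of all genes tested were. The latter was Hmmr, the hyaluronan receptor RHAMM that also serves at the mitotic spindle, at 15.5, 15.2 and 13.6 FPKM in the mAC libraries and 12.2, 12.1 and 10.6 FPKM in those of mAC_Mito (log2 fold change -0.37, SE 0.12, edgeR unadjusted p = 0.0122). The groups of Hmmr did not overlap, as for 3.54% of all genes tested in that direction. The summed mitosis markers did not overlap either, and their part in the level of Hmmr was not tested. The former were the glypicans Gpc1, at 56.6 ± 4.31 and 67.6 ± 5.86 FPKM, and Gpc2, at 0.616 ± 0.190 and 0.888 ± 0.142 FPKM. In FPKM 3 of the 56 were higher in mAC_Mito without overlap (Gpc1, Chst1 and Hs3st3a1) and 1 was lower (Hmmr). Of all genes tested 3.76% and 3.54% were. In TMM-scaled CPM, which is counts scaled to library size, 4 were higher and 1 lower, where 3.93% and 4.39% of all genes tested were. The genes of this paragraph were named after their values were seen.

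The most abundant gene of each further list was close between the groups. The core protein Sdc2, a syndecan, was at 205 ± 10.8 and 215 ± 5.12 FPKM. The lysosomal hexosaminidase subunit Hexa was at 72.8 ± 7.29 and 79.9 ± 2.85 FPKM, the hyaluronan receptor Cd44 at 23.1 ± 2.33 and 21.8 ± 1.69 FPKM, and Impad1, which clears the by-product of PAPS in the Golgi, at 29.6 ± 1.73 and 27.5 ± 4.69 FPKM. Pxylp1, the phosphatase that reverses the action of Fam20b, was at 9.03 ± 0.868 and 8.67 ± 0.608 FPKM, and the heparan glycosyltransferase Extl1 at 5.42 ± 0.284 and 6.0 ± 0.894 FPKM. Over all genes tested 8888 fold changes were above 0 and 8757 below. Of the 13 lysosomal genes for breakdown 11 were above 0 (median log2 value 0.06), as were 7 of 9 heparan core proteins (0.05), 4 of 6 further heparan enzymes (0.08) and 4 of 8 genes for other sulfation and keratan sulfate (-0.01). Of 14 further donor genes 10 were below 0 (median -0.07). Of 6 other hyaluronan genes 5 were below 0, with a median of -0.34. For 4 of these 6 the interval of the fold change reached beyond 1.5-fold. The lowest value was that of Hyal3 (-0.43), with 8 to 22 counts per library, and Stab2 (-0.36) had 11 to 26. Hmmr was at -0.37, Tnfaip6 at -0.32, the abundant Cd44 at -0.12 and Cemip2 at 0.16.

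Read by library, extremes of the 44 genes were found in both groups, and which library was most often lowest depended on the scale. In FPKM, a tally added after seeing the data, the lowest library was mAC_Mito 1 for 18 genes (40.9%, against 17.8% of all genes tested), mAC 1 for 13 (29.5%, against 35.2%), mAC 3 for 6, mAC 2 for 4, mAC_Mito 3 for 2 and mAC_Mito 2 for 1. In TMM-scaled CPM it was mAC 3 for 13 genes (29.5%, against 18%), mAC 1 for 9, mAC_Mito 1 for 8, mAC 2 for 6, mAC_Mito 3 for 5 and mAC_Mito 2 for 3. On both scales mAC_Mito 2 was most often the highest, for 19 genes in FPKM (43.2%, against 21.9%) and 13 in CPM (29.5%, against 16.8%). In CPM, within mAC_Mito the median deviation of the 44 genes from their own means on the log2 scale was -0.046 in library 1 and 0.033 and 0.037 in libraries 2 and 3. On that scale, libraries of 1 group differed by more than the median difference of 0.02 between the groups.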

How the data were processed

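Counts and FPKM of 6 libraries were used. Per the file headers, the authors' table holds a read count for each gene; its whole numbers were taken as raw. Beside it stands FPKM, also made by the authors, per the file headers. Bowtie 0.12.2, HISAT2 2.0, StringTie 1.3.0 and build mm8 are listed in the submitters' processing notes with no role. The positions are those of GRCm38. How reads were counted, and whether by strand, is not given in the sources used here. Genes that overlap another are therefore uncertain, which concerns 17 of the 45. Positions are printed as in the table.

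Groups were compared with edgeR 4.0.16 (R 4.3.3): TMM scaling, filterByExpr (minimum count 10, minimum total 15), which kept 17645 genes, and a two-sided quasi-likelihood test with Benjamini-Hochberg adjustment over those genes. The function was tested on simulated data. Standard errors and 95% intervals are those implied by the F statistic, and a gene's level is its FPKM. DESeq2 1.42.0, limma 3.58.1 (pseudocounts 1 and 0.1), other filters, scaling, a replicate block and each library left out were alternatives. No pair of libraries of a group agreed within sampling noise (chi-square per degree of freedom of at least 24.9).

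The members and lists were chosen with earlier results of these data known. Values per library with fold change and error are given by rule for the most abundant gene of each role and for the 3 genes of smallest p in each direction; the remainder by level.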

Additional observations from a re-analysis of the deposited data

How the results depend on the processing

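No member and none of the further pathway genes that were tested passed the adjusted threshold under any of the 13 alternatives; with FPKM of at least 5 in 3 libraries these were 33 members, without Cemip, and 34 pathway genes, and the median log2 fold change of the members stayed between 0.0045 and 0.049. Over all genes, 1 was called higher and 1 lower; DESeq2 gave 2 and 2, no filter 0 and 0, FPKM of at least 5 in 3 libraries 0 and 0, and limma on log2(FPKM + 1) 1 and 0, while leaving out a library gave 0 to 3 higher and 0 to 1 lower (3 higher without mAC 3 or mAC_Mito 2, 0 in both directions without mAC_Mito 1 or mAC_Mito 3). The cause was not tested. Signs near 0 turned: Papss2 was at 0.0045 and 0.0046, and Hyal2 at 0.0037 and 0.0055, in limma on log2(FPKM + 1) and log2(FPKM + 0.1). With a library left out, log2 fold changes ran from -0.087 to 0.0267 for Chsy1, -0.0242 to 0.0715 for Dse, -0.0369 to 0.0813 for Ext2, -0.187 to 0.168 for Papss2 and -0.121 to 0.0501 for Hyal2. Those of Has2 ran from -0.38 to -0.23, Sulf1 from -0.30 to -0.17, Sulf2 from 0.13 to 0.40, Cemip from 0.26 to 0.52, Xylt1 from 0.22 to 0.49 and Extl2 from -0.16 to -0.05. In CPM, a comparison added after seeing the data, groups did not overlap for 0 members higher and 2 lower (Has2 and Sulf1; 3.93% and 4.39% of all genes tested), against 1 and 1 in FPKM (3.76% and 3.54%), and Chsy1 differed by -1.30 points of its pair in place of -0.819. With the replicate block edgeR called 0 members, with log2 fold change -0.31 for Has2, and 1 gene higher and 1 lower over all genes. Same-numbered libraries had correlations of deviations of 0.124, -0.06 and -0.012, and those of unlike number -0.14 to 0.154. So few libraries cannot decide whether the numbers pair them. Precision is limited for Has1, Has3, Chst3 and Chst13, with at most 189 counts per library.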
